A study of Oryza sativa with 4 samples.

Results

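The stress-responsive NAC genes encode plant transcription factors, and 9 rice genes of this kind were looked up by identifier in the RPM tables of 2 rice cultivars, 93-11 (indica) and Nipponbare (japonica). RPM scales the reads of a gene to the size of its library. Of the 9 genes, 6 were listed for both cultivars, 2 for 93-11 only and 1, LOC_Os03g21060, for neither. The 2 tables together list 20567 identifiers, of which 8576 (41.7%) are in both, 4910 (23.9%) only in that of 93-11 and 7081 (34.4%) only in that of Nipponbare. The sources used here do not say why an identifier is listed or left out.

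Bulk RNA was taken from protoplasts, cells freed of their walls by enzymes, that were released from root tips of 5 mm. The tips came from 800 crown roots of seedlings grown for 3 days in nutrient solution, and both cultivars had the same handling per the labels. Each cultivar has 2 libraries, 93-11 replicates 1 and 2 and Nipponbare replicates 1 and 2. Whether replicates 1 and 2 were prepared separately is not stated in the labels, so every p-value rests on a spread that may be technical. An effect of cultivar and one of the protoplast preparation cannot be told apart.

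NAC proteins bind DNA through a conserved domain at the start of the protein, and a variable end region activates their target genes. The stress group is known for genes that drought, salt, cold or the hormone abscisic acid (ABA) switches on, and overexpression of several of them makes rice more tolerant of drought or salt. SNAC1 is best known from the guard cells of droughted leaves, where it promotes closure of the pores. SNAC2, also called NAC6, responds to drought, cold, salt, wounding and jasmonate, and NAC5 and NAC3 respond to ABA and salt.

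SNAC2 (LOC_Os01g66120), NAC5 (LOC_Os11g08210) and NAC3 (LOC_Os07g12340) carry names that the RefSeq gene table places on the chromosome their identifier gives. The name SNAC1 for LOC_Os03g60080 was not found in that table and rests on knowledge of the gene. The other members are given by identifier, since no source used here pairs them with a name.

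Values of 1 RPM or more had lost their decimal point in the deposited tables and were restored through the rule that each value is a whole number of reads. The power of 10 was the one that brought the 2 libraries of a cultivar closest together, and the lowest of equally close ones. A value could be 10 times too low where both true read numbers end in 0. This happened in a simulation to 0.507% of genes at 1 RPM or more in 93-11 and 0.385% in Nipponbare. One read is worth 0.0465 RPM, and library totals lay between 21504426 and 21504715 reads.

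The 6 genes listed for both cultivars split into 4 that were higher in Nipponbare and 2 that were higher in 93-11. SNAC2, NAC5, NAC3 and LOC_Os05g34830 had 3.36-fold to 17.3-fold higher RPM in Nipponbare. LOC_Os11g03300 and LOC_Os12g03040 were 6.97-fold and 3.57-fold higher in 93-11. All 6 passed limma's test over the whole table at an adjusted p of 0.05, as did 96.9% of the 7269 genes tested, so passing it sets these genes apart from nothing. By direction, 59.0% of tested genes were called higher in 93-11 and 37.9% higher in Nipponbare. All 6 also had libraries that did not overlap between the cultivars, as did 98.5% of tested genes.

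**Figure D1:**
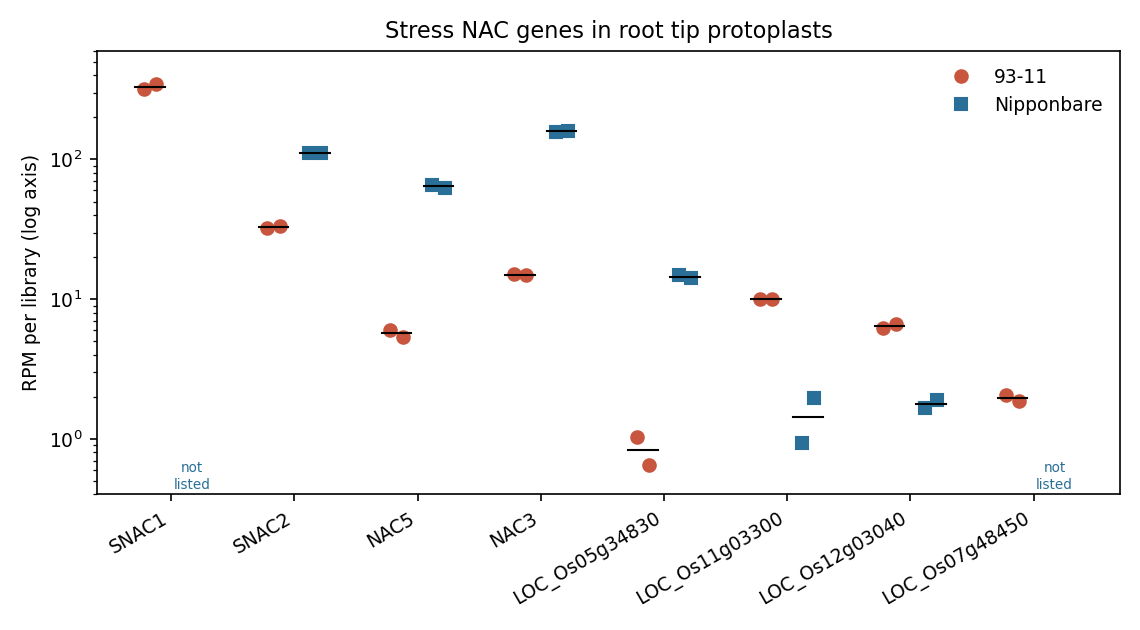
RPM of each stress NAC gene on a log axis, with 93-11 (circles) left of Nipponbare (squares), 1 point per library and a line at the mean of the 2 libraries. SNAC2, NAC5, NAC3 and LOC_Os05g34830 lie higher in Nipponbare, LOC_Os11g03300 and LOC_Os12g03040 lie higher in 93-11, and SNAC1 and LOC_Os07g48450 are listed for 93-11 only.

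SNAC2 had 32.4 and 33.3 RPM in the 93-11 libraries and 110.5 and 110.5 RPM in the Nipponbare libraries. Both 93-11 libraries were low and both Nipponbare libraries high, with no overlap. The mean was 32.9 ± 0.690 RPM in 93-11 and 110.5 ± 0.0333 RPM in Nipponbare (SD, n = 2 each). The Nipponbare SD comes from nearly equal read numbers, 2377 and 2376, and is smaller than their counting error. The log2(RPM + 1) difference, 93-11 minus Nipponbare, was -1.72 (SE 0.0428, limma adjusted p = 2.23e-06). The read numbers behind it, 1413 over both 93-11 libraries and 4753 over both Nipponbare libraries, leave little counting error.

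NAC3 differed more. It stood at 15.1 and 14.8 RPM in 93-11 and at 157 and 160.1 RPM in Nipponbare, with the 2 libraries of each cultivar close together. The fold was 10.6 in favour of Nipponbare, and the log2(RPM + 1) difference was -3.32 (SE 0.0443, limma adjusted p = 8.49e-07).

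NAC5 lay on the same side. It had 6.05 and 5.35 RPM in 93-11, from 130 and 115 reads, and 66.2 and 62.0 RPM in Nipponbare. All Nipponbare values lay above all 93-11 values. The fold was 11.2 in favour of Nipponbare, with a log2(RPM + 1) difference of -3.28 (SE 0.0796, limma adjusted p = 2.11e-06).

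The folds of NAC3 and NAC5 lie close to 10, the factor of a misplaced decimal point. If the 93-11 values of these genes were 10 times higher, their differences would be -0.09 (limma adjusted p = 0.0679) and -0.17 (limma adjusted p = 0.0877). The same shift would turn SNAC2 to 1.56 in favour of 93-11 (limma adjusted p = 1.76e-06).

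LOC_Os05g34830 was low in 93-11, at 1.02 and 0.651 RPM from 22 and 14 reads, and stood at 14.9 and 14.1 RPM in Nipponbare. Only through its Nipponbare values did it pass the filter, which asked for 1 RPM on average across the 4 libraries. Its fold of 17.3 in favour of Nipponbare corresponds to a log2(RPM + 1) difference of -3.08 (SE 0.124, limma adjusted p = 9.74e-06). One 93-11 value was deposited with its decimal point in place, which fixes the scale of the 93-11 pair. A misplaced point in the Nipponbare pair would make that pair larger than restored, and the gap wider.

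LOC_Os11g03300 went the other way. It had 10.1 and 10.00 RPM in 93-11 and 0.930 and 1.95 RPM in Nipponbare, where the lower value was deposited with its decimal point in place. Both 93-11 libraries lay above both Nipponbare libraries, and the 2 Nipponbare libraries differed from each other by 20 against 42 reads (exact binomial test, two-sided, p = 0.00715, Benjamini-Hochberg adjusted p = 0.050 over 14 pairs of libraries). The log2(RPM + 1) difference was 2.21 (SE 0.217, limma adjusted p = 0.000318). With 1 of the 93-11 libraries left out the call was lost, at a limma adjusted p of 0.0515 without replicate 1 and 0.0512 without replicate 2. Under quantile normalization the difference was 1.17.

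LOC_Os12g03040 was at 6.18 and 6.603 RPM in 93-11 and at 1.67 and 1.91 RPM in Nipponbare. The cultivars did not overlap. The log2(RPM + 1) difference was 1.41 (SE 0.0872, limma adjusted p = 4.92e-05), which is -0.04 from the median difference of all tested genes, 1.44. Under quantile normalization it was 0.34, still called (limma adjusted p = 0.0109), and it would be -1.35 if the Nipponbare values were 10 times higher.

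LOC_Os11g03300 and LOC_Os12g03040 lie near the starts of chromosomes 11 and 12, which in rice hold a duplicated segment. Copies in such a segment can be alike enough to share reads, and the labels do not tell how shared reads were counted, so the split between these genes is uncertain. Their sum does not depend on how shared reads were divided between the genes. It would be too low if shared reads were left out of both. It was 16.3 and 16.6 RPM in 93-11 and 2.60 and 3.86 RPM in Nipponbare, again without overlap. LOC_Os11g03300 held 62.0% (exact interval of 95%, 56.7% to 67.1%) and 60.2% (54.9% to 65.3%) of the reads of the pair in the 93-11 libraries. In the Nipponbare libraries it held 35.7% (23.4% to 49.6%) and 50.6% (39.4% to 61.8%). These intervals cover counting error only, and the interval of Nipponbare replicate 2 overlaps those of 93-11.

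A NAC gene with a neighbouring identifier did not follow this pair. LOC_Os12g03050, next in number to LOC_Os12g03040, had 26.7 and 27.1 RPM in 93-11 and 117 and 111 RPM in Nipponbare, a log2(RPM + 1) difference of -2.05 (limma adjusted p = 2.10e-06). LOC_Os11g03310 and LOC_Os11g03370 were listed for Nipponbare only, at 1.63 ± 0.329 and 25.9 ± 0.329 RPM (SD, n = 2), and no direction can be given for them. LOC_Os12g03040 and LOC_Os12g03050 thus differed in opposite directions. Whether LOC_Os12g03050 also shares reads with a copy on chromosome 11 was not tested.

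SNAC1 (LOC_Os03g60080) was listed for 93-11 only, at 321 and 345 RPM from 6900 and 7413 reads. This gap of 7.17% between replicates is beyond counting error (exact binomial test, two-sided, p = 1.87e-05, adjusted p = 0.000262 over 14 pairs of libraries). Of the 14 pairs of libraries compared for the members, this was the clearest. LOC_Os07g48450, also in the 93-11 table only, was at 2.05 and 1.86 RPM from 44 and 40 reads. For neither gene is there a Nipponbare value to set beside these, so no direction can be given.

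The differences kept their direction under both other scalings of the libraries. With median-ratio scaling, which divides each library by its median ratio to a common profile, SNAC2, NAC5, NAC3 and LOC_Os05g34830 differed by -2.25, -3.77, -3.84 and -3.45. With quantile normalization, which gives all libraries one distribution of values, the same genes differed by -1.71, -3.62, -3.46 and -3.79. The median of all tested genes was 1.44 on deposited RPM, 1.03 after median-ratio scaling and 0.59 after quantile normalization. Relative to that median the 4 genes higher in Nipponbare lay 3.16 to 4.77 lower on deposited RPM, and LOC_Os11g03300 lay 0.77 higher. Differences spread widely over all tested genes. A lower difference than that of SNAC2 was found for 21.7% of them. For NAC5, NAC3 and LOC_Os05g34830 this share was 8.4%, 8.2% and 9.7%, and for LOC_Os11g03300 it was 66.2%.

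**Figure D2:**
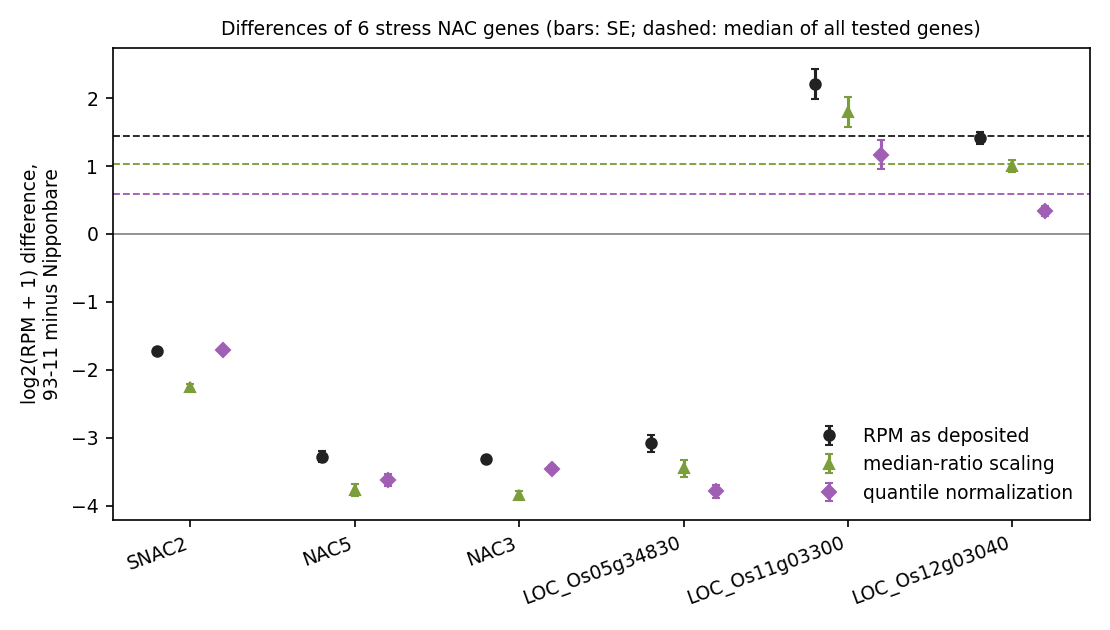
Log2(RPM + 1) difference, 93-11 minus Nipponbare, of the 6 stress NAC genes listed for both cultivars, under 3 scalings. Bars are the SE from limma and each dashed line is the median of all tested genes under the scaling of the same colour. The 4 genes on the left stay below 0 under each scaling, and LOC_Os12g03040 lies at or below the dashed lines.

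The place of each gene among the 8576 shared genes, ranked by RPM within a library, needs no scaling. It moved in the same direction as the RPM for each of the 6 genes, though not always by a like amount. NAC3 stood at percentiles 65.8 and 65.1 in 93-11 and at 93.6 and 93.7 in Nipponbare. NAC5 stood at 48.2 and 45.4 in 93-11 and at 87.6 and 87.1 in Nipponbare. These genes were thus nearer the top of the Nipponbare libraries. SNAC2 shifted less, at 79.6 and 79.7 in 93-11 and 91.4 and 91.3 in Nipponbare. LOC_Os05g34830 spanned the widest distance among the 6, at 17.6 and 12.4 in 93-11 and 73.5 and 72.7 in Nipponbare. LOC_Os11g03300 ranked at 58.3 and 57.9 in 93-11 and at 35.6 and 44.9 in Nipponbare. LOC_Os12g03040 shifted least, at 48.7 and 49.5 in 93-11 and 42.8 and 44.6 in Nipponbare.

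A ratio of 2 genes within a library does not depend on a scaling factor either. Gene length cancels between cultivars only if both were counted on the same gene models. The labels do not tell whether they were. The log2 ratio of NAC3 to SNAC2 was -1.10 and -1.17 in 93-11 and 0.51 and 0.53 in Nipponbare. For NAC5 to SNAC2 it was -2.42 and -2.64 in 93-11 and -0.74 and -0.83 in Nipponbare. Both ratios were thus higher in the Nipponbare libraries. LOC_Os05g34830 also gained on SNAC2 in Nipponbare, with -4.98 and -5.68 in 93-11 against -2.89 and -2.97 in Nipponbare. LOC_Os11g03300 moved most against SNAC2, with log2 ratios of -1.68 and -1.74 in 93-11 and -6.89 and -5.82 in Nipponbare. LOC_Os12g03040 had -2.39 and -2.34 in 93-11 and -6.05 and -5.86 in Nipponbare. None of the 5 ratios overlapped between the cultivars, and 98.5% of tested genes did not overlap in RPM itself. The share for ratios to SNAC2 over all genes was not computed. SNAC2 was itself 3.36-fold higher in Nipponbare, so a gene higher in 93-11 had to lie higher against it there. With 2 libraries each, an exact permutation test of a single ratio cannot go below p = 0.333.

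**Figure D3:**
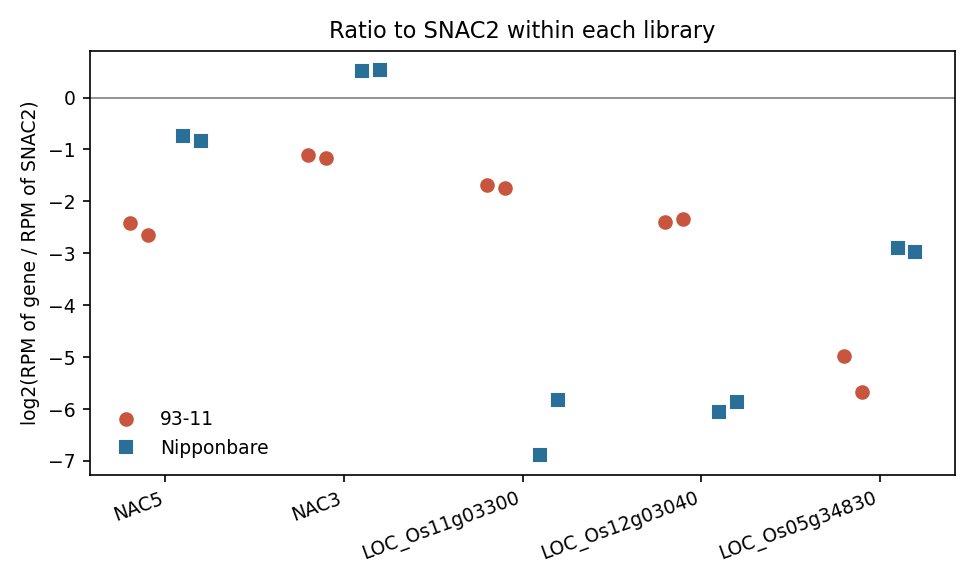
Log2 ratio of the RPM of 5 stress NAC genes to the RPM of SNAC2 in each library, 93-11 (circles) left of Nipponbare (squares). NAC5, NAC3 and LOC_Os05g34830 lie higher against SNAC2 in Nipponbare, and LOC_Os11g03300 and LOC_Os12g03040 lie higher in 93-11.

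Other NAC genes also went in both directions. Of 92 further identifiers taken as NAC genes, 56 were in either table and 29 in both, and 23 passed the filter. Of these 17 were higher in Nipponbare, 5 were higher in 93-11 and 1 was not called. Of all tested genes 37.9% were called higher in Nipponbare and 59.0% higher in 93-11. The median log2 difference of the list was -1.80, against 1.44 for all tested genes. The mean was under 1 RPM in 93-11 for 6 of the 23 genes, among them LOC_Os07g04560 and LOC_Os12g29330, and in Nipponbare for 5, among them LOC_Os03g12120, so these passed the filter only through the other cultivar. The 6 stress NAC genes had a median of -2.40. With no filter 11 of the further NAC genes were called higher in 93-11 and again 17 higher in Nipponbare, so the split of this list depends on the filter.

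The largest differences among these genes were as follows. LOC_Os07g04560 averaged 0.535 ± 0.0987 RPM over the 93-11 libraries and 33.2 ± 0.230 RPM over the Nipponbare libraries (SD, n = 2 each), a log2 difference of -4.48 (limma adjusted p = 1.37e-06). LOC_Os02g36880 and LOC_Os12g29330 differed by -3.25 (SE 0.277) and -3.05 (SE 0.078). Both had few reads in the 93-11 libraries, 15 and 41 for LOC_Os02g36880 and 10 and 12 for LOC_Os12g29330. In the other direction LOC_Os03g12120 had 8.49 ± 0.362 RPM in 93-11 and 0 reads in both Nipponbare libraries, at least 60.8-fold higher against a floor of 3 reads per library. LOC_Os06g46270 was the gene without a call, at a mean of 8.11 ± 0.362 RPM over the 93-11 libraries and 9.11 ± 0.132 RPM over the Nipponbare ones (SD, n = 2 each; limma adjusted p = 0.103). The stress genes thus were not the only NAC genes with large differences in either direction.

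The ABA pathway lies upstream of many stress NAC genes, and the dehydration response holds genes that ABA or water loss switches on. Most tested genes of both were higher in Nipponbare. The lists hold 43 identifiers for ABA synthesis and breakdown, ABA signalling and the dehydration response. Of these 37 were in either table, 18 in both and 18 were tested, with 17 higher in Nipponbare and 1 in 93-11, where 37.9% of all tested genes were called higher in Nipponbare and 59.0% higher in 93-11. Of the 18, 3 had a mean under 1 RPM in 93-11 and passed the filter only through Nipponbare. Their median log2 difference was -1.93, against 1.44 for all tested genes. Another 17 were listed for Nipponbare only and 2 for 93-11 only, and these could not be compared.

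In ABA synthesis and breakdown all 3 tested genes were higher in Nipponbare. NCED3 (LOC_Os03g44380), a carotenoid cleavage enzyme that limits ABA synthesis, averaged 1.88 ± 0.0329 RPM over the 93-11 libraries and 3.37 ± 0.230 RPM over the Nipponbare libraries (SD, n = 2 each), a log2 difference of -0.60 (limma adjusted p = 0.00101). ABA8OX1 (LOC_Os02g47470), which breaks ABA down, averaged 17.7 ± 1.15 RPM over the 93-11 libraries and 40.8 ± 0.362 RPM over the Nipponbare libraries, a log2 difference of -1.16. Genes for making and for removing the hormone thus lay on the same side. LOC_Os12g42280 differed by -0.84. Of the remaining 5, ABA8OX2 (LOC_Os08g36860) and ABA8OX3 (LOC_Os09g28390), at 1.40 ± 0.592 and 0.930 ± 0.263 RPM, and ZEP1 (LOC_Os04g37619), with 0 reads, were listed for Nipponbare only. LOC_Os07g05940 was listed for 93-11 only, at 0.721 ± 0.230 RPM, and LOC_Os02g47510 for neither.

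All 7 tested genes of ABA signalling were higher in Nipponbare. The largest differences were those of 3 protein phosphatases, PP2C30 (LOC_Os03g16170), PP2C68 (LOC_Os09g15670) and PP2C49 (LOC_Os05g38290), of the phosphatase family that holds ABA signalling in check. PP2C30 had 1.02 and 1.30 RPM in 93-11 and 53.0 and 53.2 RPM in Nipponbare, a fold of 45.7 in favour of Nipponbare and a log2 difference of -4.65 (limma adjusted p = 1.42e-06). PP2C68 and PP2C49 differed by -2.92 and -2.41, and PP2C49, at 0.163 ± 0.0986 RPM in 93-11 libraries, is among the 7 only because it was higher in Nipponbare. BZIP23 (LOC_Os02g52780), a factor that switches on ABA-responsive genes, averaged 18.7 ± 0.395 RPM over the 93-11 libraries and 83.8 ± 0.000353 RPM over the Nipponbare libraries (SD, n = 2 each), a log2 difference of -2.10. Both Nipponbare libraries held 1803 reads of BZIP23, so that SD is smaller than counting error. The activator and the phosphatases thus lay on the same side.

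In the dehydration response 7 of 8 tested genes were higher in Nipponbare. LEA3 (LOC_Os05g46480), a protective late embryogenesis abundant protein, had 5.49 and 6.14 RPM in 93-11 and 322 and 334 RPM in Nipponbare, a log2 difference of -5.59 (limma adjusted p = 7.55e-07). The dehydrin gene DHN1 (LOC_Os02g44870) averaged 168 ± 5.42 RPM over the 93-11 libraries and 1286 ± 8.25 RPM over the Nipponbare libraries (SD, n = 2 each), a log2 difference of -2.93. Both encode proteins that shield cells that lose water. RAB16C (LOC_Os11g26760), a further dehydrin gene, had 0 reads in 93-11 and 27.8 ± 0.230 RPM in Nipponbare, at least 199-fold higher in Nipponbare, and as a member of a gene cluster may share reads with its copies. LOC_Os03g60560 differed by -5.04. RAB16C and LOC_Os12g39400, the second at 0.256 ± 0.164 RPM in 93-11 libraries and 5.65 ± 0.756 RPM in Nipponbare ones, are among the 8 only through their Nipponbare values. The exception was DREB1C (LOC_Os06g03670), which encodes a factor known from the cold response. Its log2 difference of 0.27 was called higher in 93-11 (limma adjusted p = 0.0176), but not after median-ratio scaling or quantile normalization, nor without either 93-11 library or without Nipponbare replicate 2.

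A list of 9 genes that have been reported as targets of stress NAC factors gave little to compare. The only one tested, LOC_Os03g12820, averaged 11.0 ± 0.362 RPM over the 93-11 libraries and 246 ± 2.73 RPM over the Nipponbare libraries (SD, n = 2 each), a log2 difference of -4.37 (limma adjusted p = 7.48e-07). Of the others 5 were in neither table. NAS2 (LOC_Os03g19420) was listed for 93-11 only, with 3 reads over both libraries. NAS3 (LOC_Os07g48980), with 0 reads, and RCCR1 (LOC_Os10g25030), at 0.860 ± 0.0329 RPM, were listed for Nipponbare only.

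**Figure D4:**
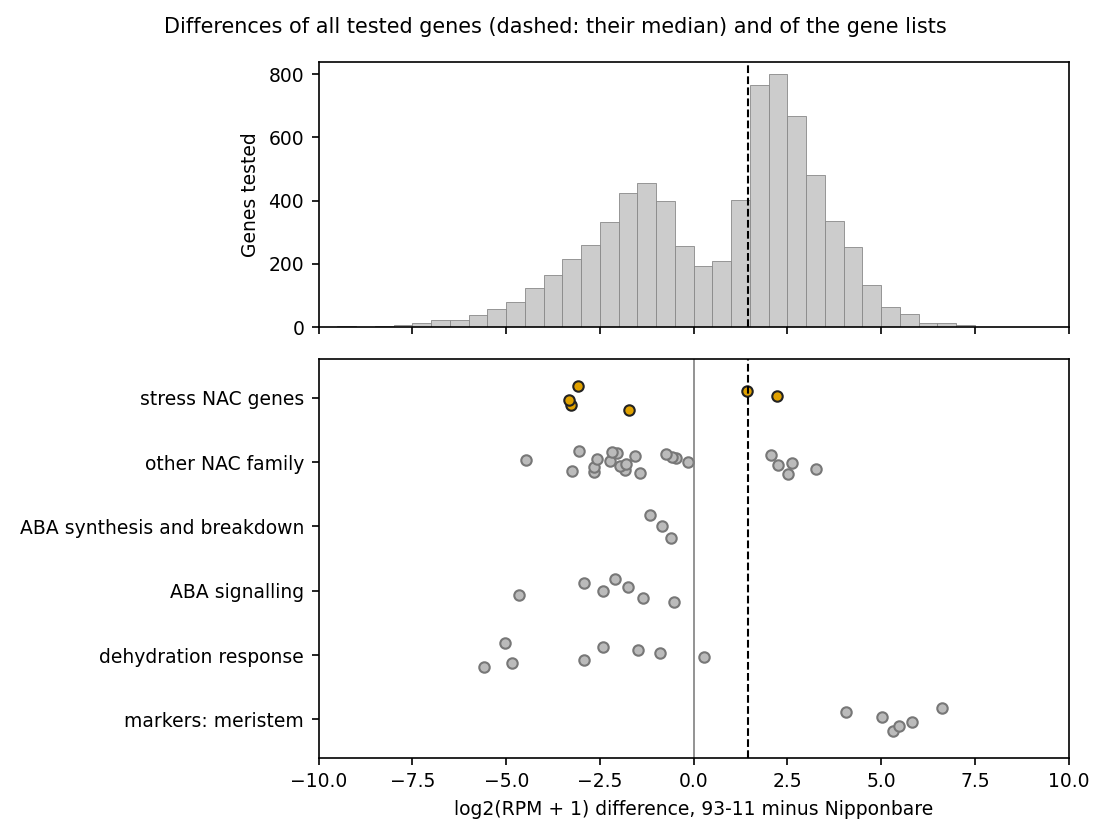
Top, number of tested genes by log2(RPM + 1) difference, 93-11 minus Nipponbare, in steps of 0.5 with their median of 1.44 dashed. Bottom, 1 point per tested gene of each list; 4 of 6 stress NAC genes and 17 of 18 ABA and dehydration genes lie below 0, and the 6 meristem markers lie above 4.

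Markers of cell division, of the root and of green shoots also differed between these libraries. For all tested genes the share called higher in 93-11 was 59.0%. The 6 meristem markers were all higher in 93-11 and passed the filter only through it, with summed levels of 344 and 352 RPM in 93-11 and 1.35 and 1.63 RPM in Nipponbare. They are the mitotic cyclin genes CYCB1;1 (LOC_Os01g59120), CYCB2;1 (LOC_Os04g47580) and CYCB2;2 (LOC_Os06g51110), the kinase genes CDKB2;1 (LOC_Os08g40170) and CDKB1;1 (LOC_Os01g67160), and LOC_Os04g55970. CYCB2;1 and CYCB2;2 had 0 reads in Nipponbare. Of the 5 root markers LSI1 (LOC_Os02g51110) was listed for Nipponbare only, and LSI2 (LOC_Os03g01700), PIN2 (LOC_Os06g44970), PHO1;2 (LOC_Os02g56510) and LOC_Os02g44310 were higher in 93-11. In that order the 4 tested root markers differed by 3.64, 3.23, 0.63 and 1.18, against a median of 1.44 for all tested genes. The sum of the root markers, 7350 and 7899 RPM in 93-11 and 3376 and 3345 RPM in Nipponbare, is mostly LOC_Os02g44310, and LSI2 had 0 reads in Nipponbare. Of 6 genes taken as markers of green shoots 3 were in neither table, and the sum was 5.999 and 6.70 RPM in 93-11 and 0.698 and 0.837 RPM in Nipponbare. Of these LOC_Os09g17740 and LOC_Os12g19381 had 0 reads in Nipponbare, and LOC_Os12g19470 was listed for Nipponbare only. The part of these markers in the NAC differences was not tested. In bulk RNA, fewer cells of a type and less RNA per cell cannot be told apart.

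For each stress NAC gene the list gene with the most similar values was sought, by Euclidean distance of log2(RPM + 1) over the 4 libraries among 48 genes. SNAC2 was nearest to LOC_Os12g03050 (distance 0.41), NAC5 to LOC_Os07g48550 (0.72) and NAC3 to LOC_Os03g21030 (0.81). All 3 partners are from the list of further NAC genes, which also supplies 29 of the 48 genes compared. LOC_Os05g34830 was nearest to the phosphatase gene PP2C68 (0.52). LOC_Os11g03300 and LOC_Os12g03040 were both nearest to LOC_Os06g01480, but at larger distances, 1.68 and 1.71. Stress NAC genes were not compared with each other, so this pair may lie closer to each other than to that gene. Over the 2 libraries of 93-11 and 60 genes, SNAC1 was nearest to LOC_Os08g06140 (0.21) and LOC_Os07g48450 to NCED3 (0.07).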

How the data were processed

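Each cultivar has 1 deposited table of RPM values, with its 2 libraries side by side. HISAT2 2.0.4 and HTSeq 0.11.2 are named in the submitters' processing notes; the genome build, annotation and strand setting were not found there or in the labels. The deposited RPM values of 1 or more (61.6% to 76.5% per library) had lost their decimal point. Each was restored to a whole number of reads (tolerance 1e-06 of a read plus 1e-12 of the value, 0 exceptions). A gene was left out where the 2 libraries still differed by over 0.4 in log10 (3 genes in 93-11, 1 in Nipponbare, no member). Listed genes held 42.3% to 55.7% of the library totals.

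Genes in both tables with a mean of at least 1 RPM were compared by limma 3.58.1 (R 4.3.3) on log2(RPM + 1), its variance trended with level, with Benjamini-Hochberg adjustment over all 7269 genes and a call at 0.05. This scale understates the change of low genes. Python 3.11.15 did the rest. On simulated reads the test recovered 88% of 1.5-fold, 96% of 2-fold, 98% of 4-fold and 100% of 8-fold changes. The simulation left most genes equal between cultivars, changed no genes of low level and used little spread between libraries (dispersion 0.001). These rates need not hold for low genes or where most genes differ. Of its 262 calls 68 were false, 61 of them in genes restored wrongly.

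Members and lists were chosen with earlier results of these data known. From the lists, the 4 largest called differences are named, and every gene found in either table for lists of 10 or fewer. Of 77 names tried in the RefSeq gene table (ASM3414082v1), 51 lay on the chromosome of the identifier, up to 11.4% of its length from the expected place, 24 were not found and 2 lay elsewhere. Unmatched genes are given by identifier, except SNAC1; that name and the membership of the lists rest on knowledge of rice genes. No sequences were used.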

Additional observations from a re-analysis of the deposited data

How the results depend on the processing

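Of 60 recomputed differences of the 6 tested stress NAC genes under 10 settings (pseudocount 0.1 RPM, no filter, both scalings, replicate block, each library left out, and limma-voom on restored reads, chosen after seeing the data), 58 kept their direction and call and 2 lost the call. Both were LOC_Os11g03300, whose difference ran from 1.90 to 2.52 with 1 library left out. The number of stress NAC genes called higher in 93-11 was 1 to 2 in those fits, which keep 3 libraries; the cause was not tested, and the lone library of a cultivar is assumed to vary like the others. With the replicate number as a block 4294 genes were higher in 93-11 and 2776 in Nipponbare, against 4290 and 2757. Same-numbered libraries showed no pairing (correlation of deviations 0.0194), and the block changed no call of a stress NAC gene.

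A decimal shift, also chosen after seeing the data, changed calls and directions. With 93-11 values 10 times higher, SNAC2 turned to 1.56, NAC5 was -0.17, NAC3 was -0.09 and 1 gene was called higher in Nipponbare. With Nipponbare values 10 times higher, LOC_Os12g03040 turned to -1.35 and 1 gene was called higher in 93-11. Levels relative to the listed genes alone were 2.33 times higher in 93-11 and 1.80 times higher in Nipponbare.

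Of the ABA and dehydration genes 0 were higher in 93-11 after median-ratio scaling or quantile normalization, and 0 to 1 with 1 library left out. That single gene is DREB1C, with a limma adjusted p of 0.0176 on deposited RPM. Of the further NAC genes 11 were higher in 93-11 with no filter. The planned edgeR count test was not run; limma-voom on the restored reads was run in its place. Genes near or under 20 reads in a library, such as LOC_Os05g34830 in 93-11 with 22 and 14 reads, are limited by counting error.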
